A study of Homo sapiens with 36 samples.

Results

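MONO-MAC-6 is a human leukaemia cell line of the monocyte lineage, and its response to A9 was described here across genes and transcripts. The design text of the series calls A9 a PROTAC degrader of IKK2 and NR4A1, while its title names IKK1 and NR4A1. MONO-MAC-6 cells of wild-type genotype, per the labels, were kept for 72 h with A9 at 0.25 µM or with DMSO, the solvent control, and poly(A) RNA was sequenced in bulk. The series also holds MOLM-13, another acute myeloid leukaemia line, treated for 72 h with DMSO or with A9 at 0.125 µM. Of 36 libraries in the series, 18 are from MONO-MAC-6, 9 with DMSO and 9 with A9. They were chosen by the line and treatment in their labels, with no use of measured values. Libraries whose labels share a first number were averaged, which left 3 DMSO and 3 A9 samples. The labels do not say whether these samples were separate cultures, so p-values measure the spread between them, which may be technical.

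A PROTAC joins a ligand of its target to a ligand of an E3 ubiquitin ligase, so that the target protein is marked for the proteasome. IKK1 and IKK2 are the kinases that release NF-kB from its inhibitors, and NF-kB switches on chemokine, cytokine and survival genes in monocytes. NR4A1 is an orphan nuclear receptor of the immediate early class. Monocytes that turn into macrophages raise lysosomal, scavenger-receptor and lipid-handling genes, and sterol-regulated transcription factors of the SREBP family control the enzymes of cholesterol and fatty acid synthesis.

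The deposited values were TPM, a level per length that sums to the same total in every library. Counts were not used, so the depth behind each value is unknown. Between 92229 and 105082 transcripts were above 0 per library, and 90.7% to 91.4% of TPM lay in transcripts matched to GENCODE 29, whose TPM were summed to genes. Of 15 markers of the monocyte lineage, 13 reached 1 TPM in a sample. Their summed level was 3554 to 4156 TPM with DMSO and 8396 to 8740 TPM with A9, most of it LYZ. CSF1R and CD4, markers of the same list, stayed under 1 TPM. Summed markers of other cell types were low in both groups. They were 2.44 to 4.36 TPM for T cells, 0.774 to 1.83 TPM for fibroblasts and 1.33 to 1.83 TPM for megakaryocytes. B-cell markers summed to 9.87 to 11.1 TPM with DMSO and 6.93 to 7.41 TPM with A9. Epithelial markers summed to 14.1 to 16.4 TPM with DMSO and 8.24 to 9.40 TPM with A9, nearly all of it KRT18 and KRT8. Erythroid markers summed to 26.1 to 28.6 TPM with DMSO and 22.6 to 24.1 TPM with A9, mainly EPOR, with HBB and ALAS2 at 0. In bulk RNA, fewer cells of a type and less RNA per cell cannot be told apart.

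DMSO sample 1 stood apart from the other 5 samples. Its median absolute distance from the mean of DMSO samples 2 and 3 was 0.41 on the log2 scale, and samples 2 and 3 lay 0.11 apart. Long transcripts were low in it, with a Spearman correlation across 12876 genes of -0.51 between that distance and transcript length. Mitochondrial genes held 6.13% of its TPM and 8.76% to 9.44% in the other samples, and ribosomal protein genes held 26.8% against 17.5% to 20.02%. Counts of called members of the main lists are therefore given with all 6 samples and without DMSO sample 1. The part of transcript length in the results was not tested beyond the fit with each sample's length trend removed.

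A9 changed genes in both directions. A gene was tested where its mean reached 1 TPM in either group, and it passed where its limma p-value was under 0.05 after Benjamini-Hochberg adjustment across every tested gene. Of 11871 protein-coding genes tested, 299 rose and 103 fell, and 166 of these moved by at least 1 on the log2(TPM + 1) scale, on which all differences are given. Another 31 called genes had other biotypes. Among all 12876 genes the share called was 3.36%, with 2.51% higher and 0.854% lower. Without DMSO sample 1 the share was 24.8%, with 14.5% higher and 10.3% lower, and 1738 protein-coding genes rose while 1288 fell. All 433 genes called with 6 samples were called in the same direction without DMSO sample 1, and 2772 further genes were called only there. The median difference over all genes was 0.16 with 6 samples and 0.027 without DMSO sample 1. The share of calls that were higher was 74.6% with 6 samples, 58.4% without DMSO sample 1, 62.6% after median-ratio scaling and 53.6% with the length trend removed. Scaling gave 4.37% of genes called, with 2.74% higher and 1.63% lower, and removal of the length trend gave 9.13%, with 4.89% higher and 4.24% lower.

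**Figure D1:**
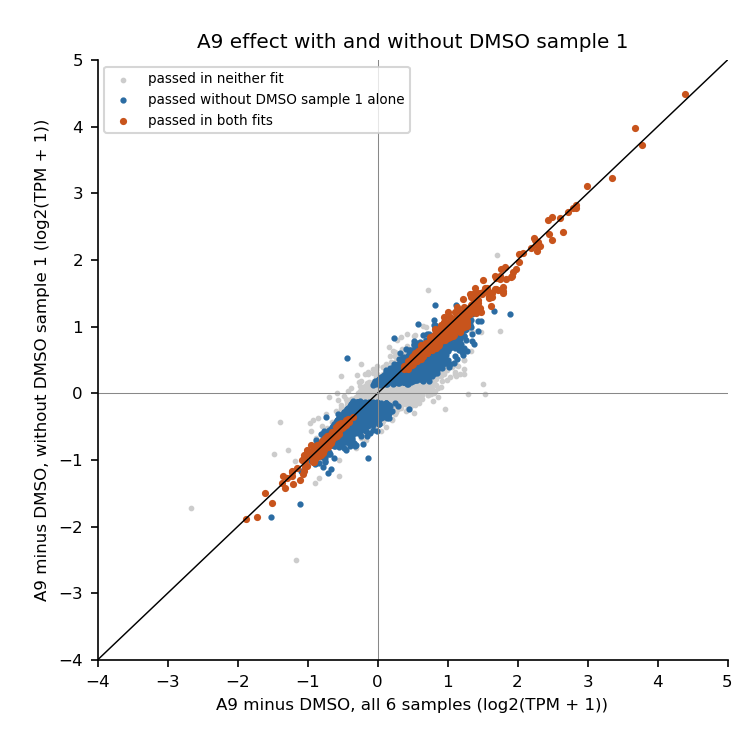
Each point is 1 gene, with its A9 minus DMSO difference from all 6 samples on the x axis and without DMSO sample 1 on the y axis, both on the log2(TPM + 1) scale; the diagonal marks equal values. The 433 genes that passed in both fits (orange) lie along the diagonal, and the genes that passed only without DMSO sample 1 (blue) lie mostly nearer to 0.

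Protein-coding genes could be named where they averaged at least 5 TPM over the 6 samples and were called with and without DMSO sample 1. All their A9 samples also had to lie on 1 side of all DMSO samples. Of such genes 209 were higher and 69 lower, and the 15 at each end were named. HP, the haemoglobin-binding plasma protein, CLU, an extracellular chaperone, IFI27 and IFI6, interferon-inducible mitochondrial proteins, and SLC11A1, a metal transporter of the phagosome, all stood in the upper 15. So did CXCL1 and CXCL8, chemokines that draw neutrophils, C3, the central complement component, FGR, a SRC-family kinase of myeloid cells, GPX3, a secreted glutathione peroxidase, CYP1B1, a cytochrome P450, MS4A6A, a membrane protein of macrophages, and THEMIS2, a signalling adaptor.

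OLR1 (ENSG00000173391, GRCh38 chromosome 12, 10158301 to 10172138, minus strand), the receptor for oxidised LDL, had 0.522, 0.715 and 0.672 TPM in the 3 DMSO samples and 8.03, 14.7 and 10.2 TPM in the 3 A9 samples. The difference was 2.83 (SE 0.21, limma adjusted p 0.00256). TREM2 (ENSG00000095970, chromosome 6, 41158506 to 41163186, minus strand), a lipid-sensing receptor of macrophages and microglia, had 2.15, 1.96 and 2.27 TPM with DMSO and 17.9, 21.5 and 19.4 TPM with A9. It rose by 2.72 (SE 0.13, limma adjusted p 0.000925). FGR (ENSG00000000938, chromosome 1, 27612064 to 27635277, minus strand) had 7.76, 11.9 and 12.4 TPM with DMSO and 54.5, 72.3 and 65.5 TPM with A9. DMSO sample 1 was the lowest of the 6, and the difference was 2.49 (SE 0.20, limma adjusted p 0.00290) with it and 2.30 (limma adjusted p 3.85e-05) without it. C3 (ENSG00000125730, chromosome 19, 6677704 to 6730562, minus strand) went from 8.19, 12.7 and 14.7 TPM to 68.1, 91.6 and 74.2 TPM, a difference of 2.65 (SE 0.22, limma adjusted p 0.00338).

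THEMIS2 had 4.18 to 4.98 TPM with DMSO and 22.2 to 27.9 TPM with A9, and GPX3 had 2.09 to 2.46 TPM and 11.4 to 17.2 TPM. That the groups did not overlap was a rule of choice for all 15, and 27.2% of all genes were higher by that rule. CYP1B1 had 6.55 to 11.4 TPM with DMSO and 40.6, 73.0 and 56.5 TPM in the A9 samples. Of the 15 raised genes, 14 passed whichever of the 6 samples was left out. The exception was CYP1B1, which did not pass without A9 sample 2 or without A9 sample 3, with a limma adjusted p up to 0.0678.

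FADS2, a fatty acid desaturase, INSIG1, a sterol sensor partner that holds SREBP in the endoplasmic reticulum, and SREBF1, which codes for SREBP-1, stood in the lower 15 with CTSG and PRSS57, serine proteases of primary granules. The others were TUBA1A, a tubulin, HSH2D, an adaptor protein, SPON2 and KAZALD1, secreted matrix proteins, SELENOP, a selenium carrier, RAB33A, a small GTPase, GAL, the neuropeptide galanin, TMEM119, a membrane protein known as a microglia marker, MT2A, a metallothionein, and NUDT7, a peroxisomal hydrolase of coenzyme A.

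SREBF1 (ENSG00000072310, chromosome 17, 17810399 to 17837002, minus strand) had 45.7, 51.5 and 55.1 TPM with DMSO and 25.8, 23.7 and 24.2 TPM with A9. The A9 samples were all lower and close together, and the difference was -1.01 (SE 0.10, limma adjusted p 0.00655). PRSS57 (ENSG00000185198, chromosome 19, 685546 to 695498, minus strand) had 394, 271 and 298 TPM with DMSO and 170, 141 and 161 TPM with A9, a difference of -1.01 (limma adjusted p 0.0258). DMSO sample 1 was the highest, and PRSS57 missed the threshold after median-ratio scaling (limma adjusted p 0.0563). TMEM119 had 6.82 to 8.69 TPM with DMSO and 3.17 to 3.27 TPM with A9, and SELENOP had 7.98 to 10.4 TPM and 3.37 to 4.8 TPM. KAZALD1 fell from 18.7 to 23.2 TPM in the DMSO samples to 8.93 to 10.3 TPM in the A9 samples. The groups did not overlap for any of the 15, a rule of their choice. The lowered genes depended on single samples more than the raised ones: 6 of 15 passed without DMSO sample 2, 11 without DMSO sample 3, 6 without A9 sample 1, 1 without A9 sample 2 and 0 without A9 sample 3, where TUBA1A was at a limma adjusted p of 0.0526. All 15 passed without DMSO sample 1, a rule of their choice, and the difference between the other counts was not tested.

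**Figure D2:**
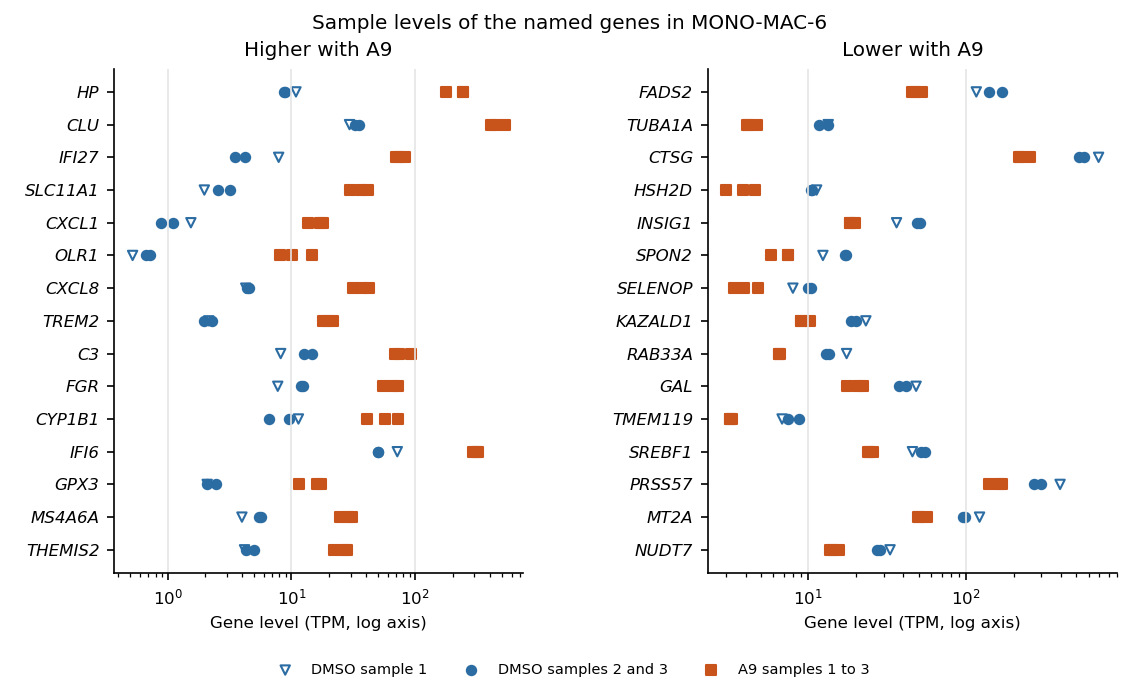
Level of each of the 30 named genes in every MONO-MAC-6 sample, in TPM on a log axis, with DMSO sample 1 as an open triangle, DMSO samples 2 and 3 as blue circles and the A9 samples as orange squares. No gene's A9 samples overlap its DMSO samples, which was a rule of their choice, and the distances are wider on the left (HP, from 8.77 to 10.9 up to 178 to 245 TPM) than on the right (FADS2, from 116 to 169 down to 45.2 to 52.8 TPM).

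Genes of cholesterol synthesis and uptake fell together in the fit without DMSO sample 1. Of 25 tested members, 7 fell and 0 rose with all 6 samples, against 0.854% of all genes lower and 2.51% higher. Without DMSO sample 1, 22 fell and 1 rose, against 10.3% and 14.5% of all genes. The median difference of the list was -0.42, or -0.59 without DMSO sample 1, beside 0.16 and 0.027 over all genes. With the length trend removed 18 fell, after median-ratio scaling 12 did, and with same-numbered samples fitted as a block 0 did. With any of the other 5 samples left out, 0 to 5 fell.

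ACAT2 (ENSG00000120437, chromosome 6, 159760328 to 159779055, plus strand), which joins acetyl-CoA units at the head of the pathway, had 104, 94.0 and 97.0 TPM with DMSO and 53.7, 52.4 and 54.8 TPM with A9. The A9 samples were all lower, by 0.86 (log2 difference -0.86, SE 0.078, limma adjusted p 0.00420). MSMO1, a sterol demethylase, fell by 0.80 from 22.8 to 29.5 TPM in the DMSO samples to 14.2 to 15.4 TPM in the A9 samples (limma adjusted p 0.0272). MVK, mevalonate kinase, fell by 0.78 (limma adjusted p 0.0304), and FDPS, which makes farnesyl diphosphate, fell by 0.73 from 418 to 487 TPM to 266 to 273 TPM (limma adjusted p 0.00911). MVD, a decarboxylase of the mevalonate route, and TM7SF2, a sterol reductase, fell by 0.75 and 0.72, and INSIG1, named above, had 36.2, 49.0 and 51.0 TPM with DMSO and 18.3 to 19.8 TPM with A9. FDPS missed the threshold after scaling (limma adjusted p 0.0502).

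Other members were called only without DMSO sample 1, and HMGCS1 was chosen among them after its values were seen. HMGCS1, an early synthase of the mevalonate route, had 27.3, 53.0 and 55.6 TPM with DMSO and 25.7, 24.1 and 24.3 TPM with A9. DMSO sample 1 lay near the A9 samples and the other DMSO samples lay well above them, so the difference was -0.78 with 6 samples (limma adjusted p 0.186) and -1.10 without that sample (limma adjusted p 1.87e-05). PMVK was the 1 member called higher, by 0.32 without DMSO sample 1 (limma adjusted p 0.00185), and SCAP, the escort of SREBP, had 55.4 to 62.4 TPM with DMSO and 55.8 to 59.5 TPM with A9.

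Of 18 tested fatty acid genes, 3 fell and 1 rose with 6 samples, against 0.854% of all genes lower and 2.51% higher. Without DMSO sample 1, 11 fell and 3 rose, against 10.3% and 14.5%. Between 0 and 3 fell, and 0 rose, with any of the other 5 samples left out. FADS2, SREBF1 and MVD fell. MVD is an enzyme of the mevalonate route and not of fatty acid synthesis, and it is counted in the cholesterol list too. MLXIPL, a glucose-sensing transcription factor of lipid genes, had 18.2, 24.1 and 24.3 TPM with DMSO and 36.8, 44.5 and 39.4 TPM with A9, and rose by 0.83 (limma adjusted p 0.0369). SCD, the stearoyl-CoA desaturase, had 50.7, 126 and 144 TPM with DMSO and 64.2, 58.6 and 60.1 TPM with A9. DMSO sample 1 was below the A9 samples and the other DMSO samples were above them, with differences of -0.67 (limma adjusted p 0.351) and, without DMSO sample 1, -1.13 (limma adjusted p 3.78e-05). FASN, fatty acid synthase, had 319, 397 and 507 TPM with DMSO and 296 to 344 TPM with A9 and was called only without DMSO sample 1 (-0.50, limma adjusted p 0.0347). ACSL1, which activates fatty acids, went the other way, from 14.6, 29.5 and 32.7 TPM to 53.6, 63.1 and 56.1 TPM, and was called only without DMSO sample 1 (0.87, limma adjusted p 0.000251); SCD and ACSL1 were chosen after their values were seen.

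**Figure D3:**
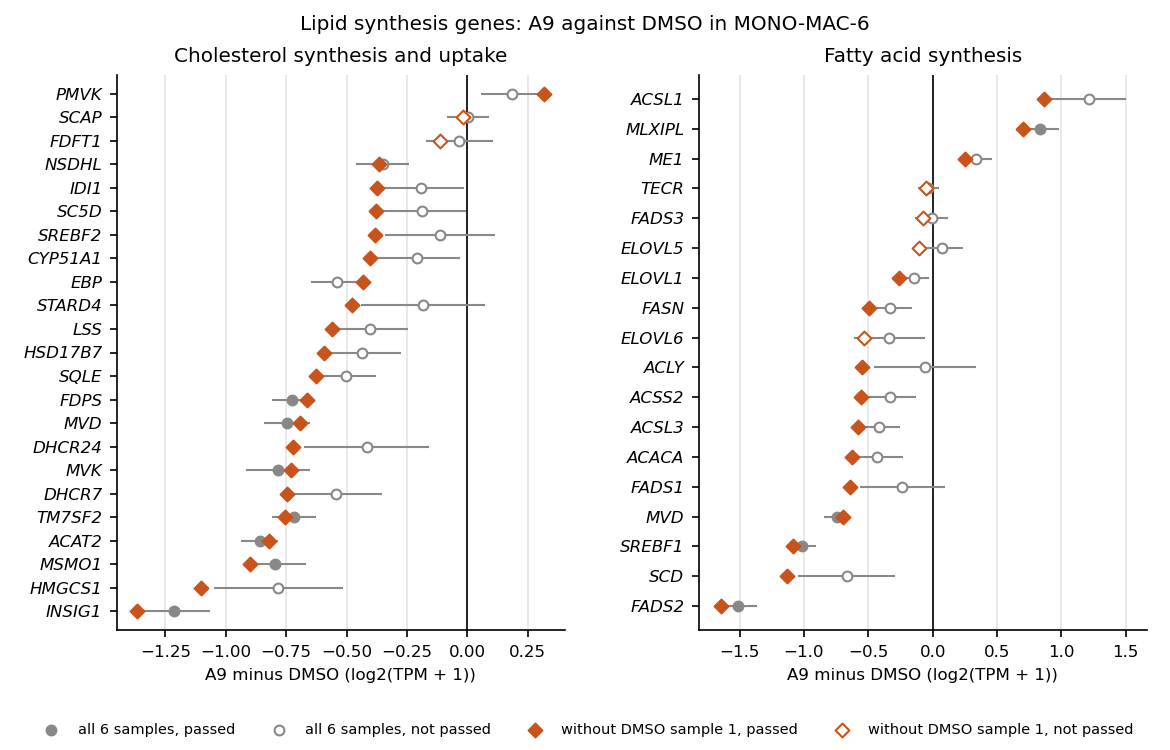
A9 minus DMSO difference of tested cholesterol genes (left) and fatty acid genes (right) on the log2(TPM + 1) scale, with all 6 samples (grey circles, bars of 1 SE) and without DMSO sample 1 (orange diamonds); filled symbols passed the threshold. Most diamonds lie to the left of 0 and many circles lie nearer to it, as for HMGCS1 at -1.10 and -0.78.

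Members of the lipid-associated macrophage list and of the lysosome list rose. Of 16 tested lipid-associated macrophage genes, 8 rose and 0 fell, against 2.51% of all genes higher, and 13 rose and 0 fell without DMSO sample 1, against 14.5%. Between 4 and 6 rose with any of the other 5 samples left out. FABP4, a fatty acid carrier, had 0.0605 to 0.259 TPM with DMSO and 5.44 to 7.45 TPM with A9, a difference of 2.60 (limma adjusted p 0.00134). CTSD (ENSG00000117984, chromosome 11, 1752752 to 1764573, minus strand), the aspartic protease cathepsin D, had 159, 145 and 158 TPM with DMSO and 567, 722 and 683 TPM with A9, and rose by 2.08 (SE 0.11, limma adjusted p 0.00134). APOC1, an apolipoprotein, had 78.8, 57.2 and 49.4 TPM with DMSO and 154, 195 and 179 TPM with A9 and rose by 1.51 (limma adjusted p 0.0119), but missed the threshold after scaling (limma adjusted p 0.0509). PLIN2, which coats lipid droplets, APOE, LGALS3, GPNMB and TREM2 were the other members that rose, and APOE missed the threshold after scaling (limma adjusted p 0.0891). FABP5 and CD63 were the most abundant members not called, with 525 to 645 TPM and 405 to 496 TPM with DMSO and 663 to 700 TPM and 509 to 544 TPM with A9; both were called higher without DMSO sample 1. SPP1, a defining member, was under the filter.

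Of 36 tested lysosomal genes, 9 rose and 0 fell, against 2.51% of all genes higher, and 24 rose and 3 fell without DMSO sample 1, against 14.5% higher and 10.3% lower. Leaving out any of the other 5 samples gave 3 to 5 that rose. PSAP (ENSG00000197746, chromosome 10, 71816298 to 71851375, minus strand), the precursor of the saposins, had 149, 170 and 179 TPM with DMSO and 461, 550 and 502 TPM with A9, and rose by 1.60 (SE 0.11, limma adjusted p 0.00170). GRN, progranulin, had 255 to 330 TPM with DMSO and 648 to 751 TPM with A9, and rose by 1.28 (limma adjusted p 0.00464). ASAH1, acid ceramidase, rose by 0.997, and GAA, the acid alpha-glucosidase, by 0.97. LAMP1, a membrane protein of the lysosome, had 176, 223 and 239 TPM with DMSO and 262 to 266 TPM with A9, and CTSC, which activates granule proteases, had 277 to 278 TPM and 236 to 258 TPM. Neither passed with 6 samples, and without DMSO sample 1 LAMP1 was higher by 0.19 (limma adjusted p 0.0139) and CTSC lower by 0.17 (limma adjusted p 0.0307). The lysosomal promoters were searched on both strands for CACGTGAC, the core of the element bound by TFEB and related factors. Of 25 members with a RefSeq promoter, 6 held it in the 300 bases around a start site, and 2.93% of all 27305 genes did (2.40% of 35116 promoters). Of the 6, CTSD and GAA rose with 6 samples and CTSA, LAMP1, MCOLN1 and ATP6V0D1 passed only without DMSO sample 1, while CTSH, CTSZ, GLA, MAN2B1 and GRN rose and did not hold these letters. The stretches of the 80 bases before the start site are shown for CTSD and GAA, the holders that rose with 6 samples, with the motif in capitals, 5′ to 3′ on the gene's strand; the copies in GAA overlap their reverse complement.
CTSD, GRCh38.p14 chr11:1763928-1764007, minus strand: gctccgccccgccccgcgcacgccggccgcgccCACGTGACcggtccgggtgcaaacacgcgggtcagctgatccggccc
GAA, GRCh38.p14 chr17:80101501-80101580, plus strand: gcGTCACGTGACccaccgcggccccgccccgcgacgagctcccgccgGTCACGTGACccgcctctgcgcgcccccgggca
The sterol genes were searched likewise for TCACNCCAC, a sterol response element, and 1 of 19 members with a promoter, SREBF2, held it, against 1.39% of all genes.

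Iron, haem and antioxidant genes were also among those that rose. Of 14 tested iron and haem genes, 6 rose and 0 fell with 6 samples, against 2.51% of all genes higher and 0.854% lower. Without DMSO sample 1, 9 rose and 1 fell, against 14.5% and 10.3%. The number that rose was 3 or 4 with any of the other 5 samples left out. FTH1 (ENSG00000167996, chromosome 11, 61959718 to 61967660, minus strand), the ferritin heavy chain, had 1100, 912 and 950 TPM with DMSO and 3181, 3803 and 3464 TPM with A9, and rose by 1.82 (SE 0.11, limma adjusted p 0.00136); it has many processed copies in the genome, so its value is less certain. HMOX1, haem oxygenase, had 0.197 to 0.380 TPM with DMSO and 5.10, 12.2 and 8.49 TPM with A9, and rose by 2.84 (limma adjusted p 0.00628), with 1 fit without a sample at 0.0509. BLVRB, biliverdin reductase B, rose by 1.31 and FTL, the ferritin light chain, by 0.68, and both missed the threshold after scaling (limma adjusted p 0.0629 and 0.224). HP and SLC11A1 of the upper 15 are the other members that rose. TFRC, the transferrin receptor, had 52.0, 124 and 135 TPM with DMSO and 132 to 138 TPM with A9 and passed in neither fit. Of 17 NRF2 targets, 6 rose and 1 fell, against 2.51% of all genes higher and 0.854% lower. Without DMSO sample 1, 14 rose and 1 fell, against 14.5% and 10.3%. With any of the other 5 samples left out, 0 to 5 rose, 0 of them without A9 sample 3, and 0 fell. PRDX1, a peroxiredoxin, had 1483 to 1788 TPM with DMSO and 1054 to 1081 TPM with A9 and fell by 0.56 (limma adjusted p 0.0347). PGD and TKT of the pentose phosphate route rose by 0.96 and 0.64. PRDX1 and TKT missed the threshold after scaling (limma adjusted p 0.115 and 0.0758).

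Several monocyte and macrophage receptors rose. Of 19 tested surface receptors, 6 rose and 0 fell with 6 samples, against 2.51% of all genes higher and 0.854% lower. Without DMSO sample 1, 9 rose and 2 fell, against 14.5% and 10.3%. Leaving out any of the other 5 samples gave 2 to 5 that rose. TYROBP (ENSG00000011600, chromosome 19, 35904401 to 35908295, minus strand), the signalling adaptor of TREM2, had 10.8, 8.73 and 8.82 TPM with DMSO and 40.4, 56.5 and 48.4 TPM with A9, and rose by 2.24 (SE 0.16, limma adjusted p 0.00207). CD14, the co-receptor for bacterial lipopolysaccharide, had 2.66 to 3.71 TPM with DMSO and 12.4 to 13.5 TPM with A9, and rose by 1.77 (limma adjusted p 0.00256). CD68, a macrophage lysosomal glycoprotein, rose by 1.72, and MERTK, a receptor for dying cells, by 1.42. SIGLEC1, a sialic acid receptor of macrophages, had 0.443 to 0.856 TPM with DMSO and 6.78 to 7.57 TPM with A9, and rose by 2.32 (limma adjusted p 0.00134). ITGB2, the beta-2 integrin, had 42.8, 101 and 121 TPM with DMSO and 122 to 142 TPM with A9, and CCR2, the receptor for CCL2, had 26.6 to 41.3 TPM and 35.3 to 41.4 TPM; neither passed. CD163, MRC1 and ADGRE1, used to mark resident or alternatively activated macrophages, were under the filter.

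Of 11 tested S100 and secreted monocyte proteins, 8 rose and 0 fell with and without DMSO sample 1, against 2.51% and 14.5% of all genes higher. Between 2 and 4 rose with any of the other 5 samples left out, and 3 after scaling. CHI3L1, a secreted chitinase-like protein, had 139, 171 and 193 TPM with DMSO and 489, 535 and 530 TPM with A9 and rose by 1.64 (limma adjusted p 0.00280). S100A12, a granulocyte alarmin, had 21.7, 14.9 and 15.3 TPM with DMSO and 33.0, 42.4 and 41.2 TPM with A9 and rose by 1.13 (limma adjusted p 0.0278), or missed the threshold after scaling (limma adjusted p 0.0939). The list of complement genes and clusterin (CLU) was drawn up with earlier results of these data known. Of its 12 tested members, 4 rose and 0 fell with 6 samples, against 2.51% of all genes higher and 0.854% lower. They were CLU, C3, CFP, which stabilises the convertase, by 1.42, and CFD, a serine protease of the alternative pathway, by 0.89. CFD missed the threshold after scaling (limma adjusted p 0.0947). When DMSO sample 1 was left out, 6 members of this list rose and 1 fell, against 14.5% and 10.3% of all genes. With any of the other 5 samples left out 2 or 3 rose. Of 9 tested granule genes, 1 rose and 2 fell, against 2.51% of all genes higher and 0.854% lower. Without DMSO sample 1, 3 rose and 4 fell, against 14.5% and 10.3%. Leaving out any of the other 5 samples gave 0 or 1 that rose and 0 to 2 that fell. SRGN, the granule proteoglycan, had 2808 to 3210 TPM with DMSO and 4487 to 4671 TPM with A9 and rose by 0.60 (limma adjusted p 0.0183), but not after scaling (limma adjusted p 0.171). CST7, a cysteine protease inhibitor, had 206 to 229 TPM and 119 to 124 TPM and fell by 0.81 (limma adjusted p 0.00463). The proteases ELANE and PRTN3 had 2140 to 2719 TPM and 1062 to 1437 TPM with DMSO and 2768 to 2892 TPM and 1541 to 1699 TPM with A9, and were called higher only without DMSO sample 1. NCF1, a subunit of the phagocyte NADPH oxidase with near-identical copies, had 123 to 135 TPM and 306 to 368 TPM and rose by 1.41 (limma adjusted p 0.00169). ALOX5AP, which presents arachidonic acid to 5-lipoxygenase, rose by 1.51 from 475 to 499 TPM to 1242 to 1490 TPM (limma adjusted p 0.00136). Of 16 transcription factors of the lineage, 2 rose and 0 fell, against 2.51% of all genes higher and 0.854% lower. KLF4 rose by 0.95 and SPI1 by 0.38, the latter not after scaling (limma adjusted p 0.418). Without DMSO sample 1, 7 rose and 1 fell, against 14.5% and 10.3%. With any of the other 5 samples left out, 0 or 1 rose.

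The mRNA of the named targets did not pass the test with 6 samples. IKBKB, CHUK, IKBKG and NR4A1 were tested, 0 of 4 passed in limma, and 0 had an unadjusted p under 0.05; NR4A2 and NR4A3 were under the filter. IKBKB had 17.3, 29.9 and 34.6 TPM with DMSO and 37.5 to 39.9 TPM with A9, and NR4A1 had 3.52, 4.85 and 5.25 TPM and 4.97, 6.96 and 5.25 TPM. Without DMSO sample 1 IKBKB was higher by 0.25 (limma adjusted p 0.0365). Of 17 tested NF-kB subunits and inhibitors, 0 passed in limma and 3 had an unadjusted p under 0.05, against 20.4% of all genes. When DMSO sample 1 was left out, 4 were higher, against 14.5% of all genes, and 0 lower. Among the targets and these subunits and inhibitors, 0 were called with any of the other 5 samples left out. RNA levels do not show whether a protein was degraded.

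Of 21 tested NF-kB target genes, 5 rose and 0 fell, against 2.51% of all genes higher and 0.854% lower. Without DMSO sample 1, 12 rose and 1 fell, IL1B, against 14.5% and 10.3%. With any of the other 5 samples left out, 2 or 3 rose. CXCL8 (ENSG00000169429, chromosome 4, 73740506 to 73743716, plus strand) had 4.28, 4.54 and 4.41 TPM with DMSO and 31.4, 42.0 and 36.9 TPM with A9, a rise of 2.79 (SE 0.14, limma adjusted p 0.000925). CXCL2, a close neighbour of CXCL1, had 1.04 to 1.53 TPM and 3.25 to 4.04 TPM and rose by 0.98 (limma adjusted p 0.0187). TNFAIP2 rose by 0.83 (limma adjusted p 0.0297) and PLAUR, the urokinase receptor, by 0.62 (limma adjusted p 0.0115), and both missed the threshold after scaling. SOD2, the mitochondrial superoxide dismutase, had 44.8 to 56.9 TPM with DMSO and 63.4 to 67.9 TPM with A9 and was called only without DMSO sample 1. The immediate early genes EGR1, FOS and DUSP1 rose by 0.95, 0.88 and 0.83, 3 of 13 tested, against 2.51% of all genes. Without DMSO sample 1, 7 of 13 rose, against 14.5%. Without DMSO sample 2 1 rose, and with any of the other 4 left out 0 did.

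Chemokines that carry the same NF-kB letters near the start site did not all pass the test. Of 9 tested chemokines, 3 rose and 0 fell, against 2.51% of all genes higher and 0.854% lower. Without DMSO sample 1, 6 rose and 2 fell, against 14.5% and 10.3%. Leaving out any of the other 5 samples gave 2 that rose. The promoters were searched on both strands for GGAATTTCC, an NF-kB motif. Of 15 chemokines with a RefSeq promoter, 6 held it, and 0.56% of all genes did. CXCL1, CXCL2 and CXCL8 rose. CXCL3 had 0.465 to 0.870 TPM with DMSO and 1.28 to 1.53 TPM with A9, a difference of 0.53 (limma adjusted p 0.0972). CXCL10 had 7.83 to 8.32 TPM with DMSO and 4.75 to 5.66 TPM with A9, a difference of -0.58 (limma adjusted p 0.0625). Without DMSO sample 1 CXCL3 was higher (limma adjusted p 0.0380) and CXCL10 lower (limma adjusted p 0.00368); these 2 were chosen after their values were seen. CXCL5, the sixth holder, was under the filter. The stretches are shown because they set the same motif, in capitals, beside these 5 responses; they end 41 bases before the start site, except that of CXCL10, which ends 121 before it. In CXCL10 the motif lies on the other strand.
CXCL1, GRCh38.p14 chr4:73869273-73869352, plus strand: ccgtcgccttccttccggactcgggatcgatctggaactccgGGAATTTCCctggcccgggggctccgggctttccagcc
CXCL2, GRCh38.p14 chr4:74099236-74099315, minus strand: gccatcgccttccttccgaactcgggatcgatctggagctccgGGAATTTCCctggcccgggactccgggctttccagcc
CXCL3, GRCh38.p14 chr4:74038730-74038809, minus strand: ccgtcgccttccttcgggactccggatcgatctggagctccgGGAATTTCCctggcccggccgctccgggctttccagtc
CXCL8, GRCh38.p14 chr4:73740449-73740528, plus strand: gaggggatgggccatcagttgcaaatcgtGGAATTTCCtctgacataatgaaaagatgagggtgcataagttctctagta
CXCL10, GRCh38.p14 chr4:76023618-76023697, minus strand: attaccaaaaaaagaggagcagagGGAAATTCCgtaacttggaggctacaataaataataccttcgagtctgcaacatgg
CXCL1, CXCL2 and CXCL3 are close copies, so reads between them can be shared. A match is a description of letters and not a measured site.

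Some interferon-stimulated genes rose and others did not pass in any fit shown. Of 28 tested, 6 rose and 0 fell with 6 samples, against 2.51% of all genes higher and 0.854% lower. Without DMSO sample 1, 16 rose and 2 fell, against 14.5% and 10.3%. The list median was 0.60, and 0.54 without DMSO sample 1. With any of the other 5 samples left out, 3 to 5 rose. IFI6 (ENSG00000126709, chromosome 1, 27666061 to 27672218, minus strand) had 71.6, 50.4 and 50.3 TPM with DMSO and 320, 318 and 291 TPM with A9, and rose by 2.43 (SE 0.15, limma adjusted p 0.00144). LGALS3BP, a secreted glycoprotein, had 48.3 to 71.0 TPM with DMSO and 178 to 188 TPM with A9, and rose by 1.60 (limma adjusted p 0.00462). OAS3, which makes oligoadenylate on double-stranded RNA, rose by 1.41, IFI44L by 1.28 and IFITM3, an inhibitor of virus entry, by 0.96, which missed the threshold after scaling (limma adjusted p 0.0618). ISG15 had 42.9, 27.6 and 27.9 TPM with DMSO and 45.5 to 47.4 TPM with A9 and passed only without DMSO sample 1 (0.73, limma adjusted p 7.48e-05).

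Other members passed in neither fit. IFIT1, which binds viral RNA, had 1.54 to 1.59 TPM with DMSO and 1.38 to 1.67 TPM with A9, IFIT3 had 4.67 to 7.50 TPM and 5.71 to 7.07 TPM, and BST2, which tethers virus particles, had 219 to 293 TPM and 214 to 224 TPM. The groups of all 3 overlapped. The interferon-stimulated response element, taken as 2 copies of GAAA set 2 bases apart, was searched on both strands. Of 20 members with a RefSeq promoter, 16 held it, and 4.38% of all genes did. All 6 genes that rose were among the 16, and so were IFIT1, IFIT3, IFITM1 and BST2, which passed in neither fit. The stretches from 160 to 71 bases before the start site are shown for genes that moved and genes that did not pass, with the motif in capitals; the copies in ISG15 overlap each other. ISG15, IFIT1 and IFIT3 were chosen after their values were seen.
IFI27, GRCh38.p14 chr14:94110576-94110665, plus strand: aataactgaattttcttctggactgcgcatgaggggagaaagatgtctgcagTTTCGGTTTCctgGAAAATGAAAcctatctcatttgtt
IFI6, GRCh38.p14 chr1:27672263-27672352, minus strand: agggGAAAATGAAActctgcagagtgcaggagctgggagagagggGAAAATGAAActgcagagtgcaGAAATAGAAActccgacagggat
ISG15, GRCh38.p14 chr1:1013337-1013426, plus strand: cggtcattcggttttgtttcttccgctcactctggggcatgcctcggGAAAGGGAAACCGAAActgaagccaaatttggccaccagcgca
IFIT1, GRCh38.p14 chr10:89392463-89392552, plus strand: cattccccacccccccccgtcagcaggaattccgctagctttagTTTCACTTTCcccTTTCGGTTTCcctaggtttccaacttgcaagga
IFIT3, GRCh38.p14 chr10:89327837-89327926, plus strand: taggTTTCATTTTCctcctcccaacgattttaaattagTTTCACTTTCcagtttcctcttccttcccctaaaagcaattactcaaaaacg
No copy overlapped another of the motifs searched here.

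**Figure D4:**
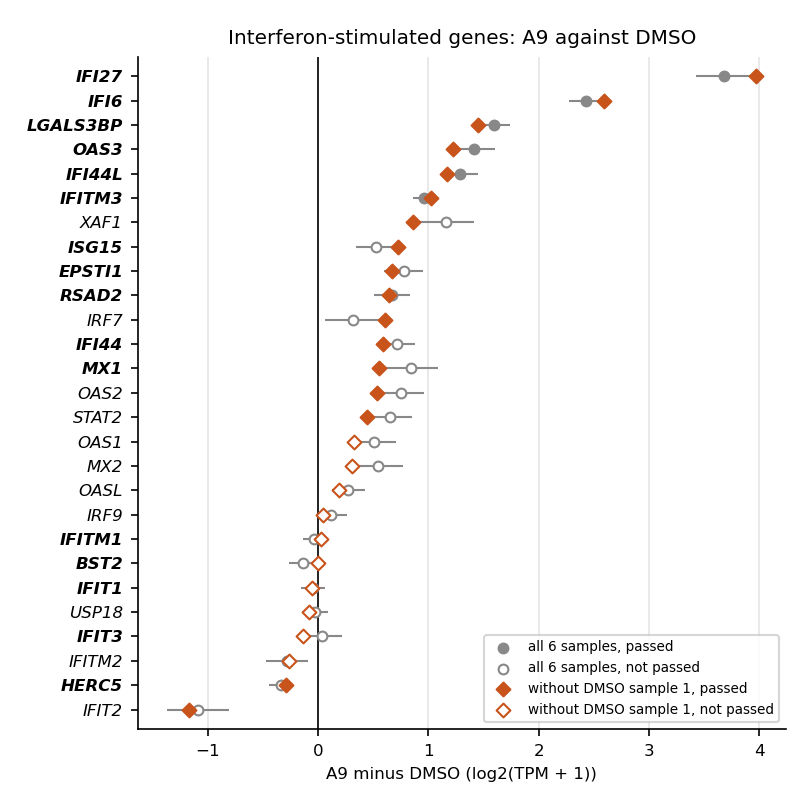
A9 minus DMSO difference of tested interferon-stimulated genes on the log2(TPM + 1) scale, with all 6 samples (grey circles, bars of 1 SE) and without DMSO sample 1 (orange diamonds); filled symbols passed the threshold, and bold names hold the interferon motif in a promoter. Bold names stand both at the top, with IFI27 and IFI6, and around 0, with IFIT1, IFIT3 and BST2.

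Of 23 tested genes of the unfolded protein and integrated stress response, 3 fell and 0 rose, against 0.854% of all genes lower, and 11 fell and 3 rose without DMSO sample 1, against 10.3% lower and 14.5% higher. The number that fell was 0 or 1 with any of the other 5 samples left out. CHAC1, which degrades glutathione, had 4.38 to 5.83 TPM with DMSO and 2.40 to 2.73 TPM with A9 and fell by 0.81 (limma adjusted p 0.0347), and ASNS, asparagine synthetase, fell by 0.55 (limma adjusted p 0.0353). ATF5, a transcription factor of the same response, had 144, 223 and 211 TPM and 128 to 136 TPM and was called only without DMSO sample 1. Of 26 replication and mitosis genes 1 fell, TYMS, thymidylate synthase, against 0.854% of all genes. Without DMSO sample 1, 7 fell, against 10.3%, and with any of the other 5 samples left out 0 did. TYMS missed the threshold after scaling (limma adjusted p 0.110). With 6 samples limma called 0 of 16 MYC network, 0 of 15 BCL2 family, 0 of 11 HOXA and MEIS1 and 0 of 18 glycolysis genes, where 2, 3, 1 and 5 had an unadjusted p under 0.05, against 20.4% of all genes. When DMSO sample 1 was left out, 2 MYC network genes were higher and 0 lower, 3 BCL2 family genes higher and 2 lower, 0 HOXA and MEIS1 genes higher and 2 lower, and 5 glycolysis genes higher and 2 lower, against 14.5% and 10.3% of all genes. In these lists 0 genes were called with any of the other 5 samples left out. CCND3, cyclin D3, had 122 to 151 TPM with DMSO and 79.3 to 92.8 TPM with A9 and fell by 0.67 (limma adjusted p 0.0283), and CDKN1C, an inhibitor of cyclin-dependent kinases, rose by 1.13 (limma adjusted p 0.0204).

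Most of the 79 cytosolic ribosomal protein genes had lower levels with A9. limma called 0 of them with 6 samples, and 36 had an unadjusted p under 0.05, against 20.4% of all genes. Without DMSO sample 1, 54 were called lower and 0 higher, against 10.3% and 14.5% of all genes. The count was 0 with any of the other 5 samples left out, and 0 with same-numbered samples fitted as a block. For 70 of the 79, all A9 samples were below all DMSO samples, and for 1, RPL23, all were above, beside 10.7% of all genes lower and 27.2% higher by that rule. They held 26.8%, 20.02% and 19.5% of TPM in the DMSO samples and 17.5%, 17.6% and 17.6% in the A9 samples. The median difference was -0.29, or -0.16 without DMSO sample 1. With the length trend removed and 6 samples, 2 were called lower and the median was -0.34, and after median-ratio scaling 0 were called and the median was -0.46.

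**Figure D5:**
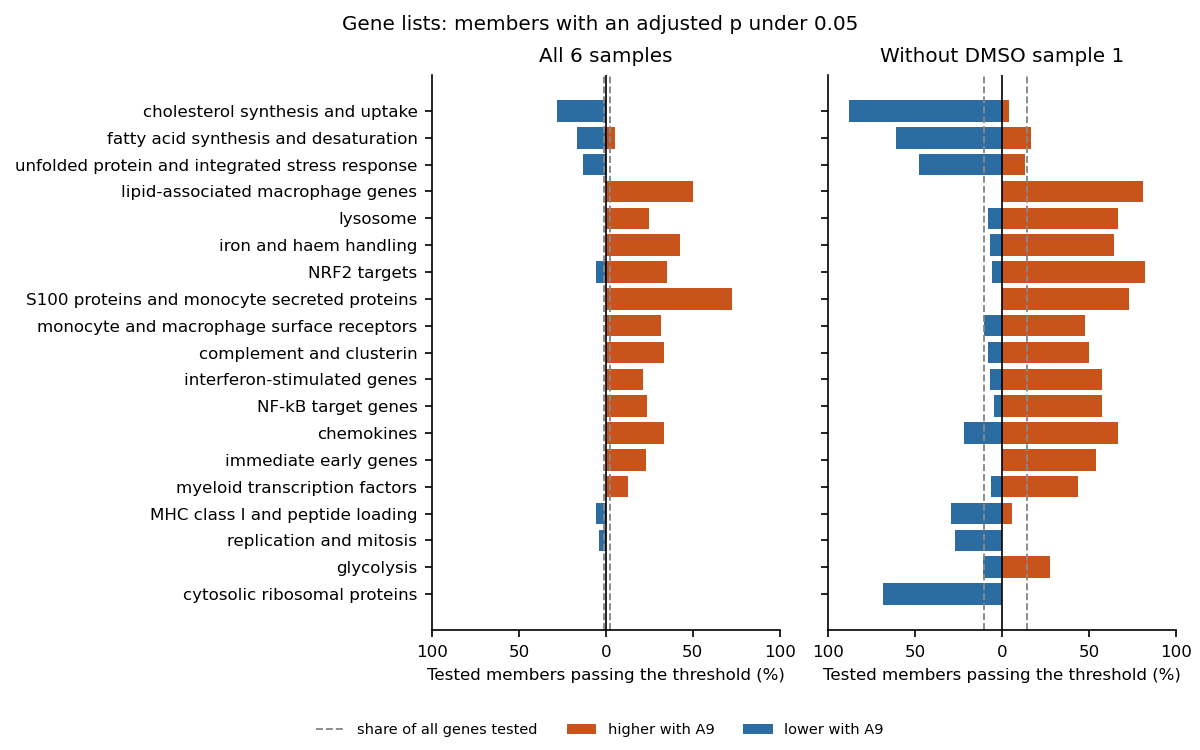
Percent of the tested members of 19 gene lists that passed the threshold, higher with A9 to the right and lower to the left, with all 6 samples (left) and without DMSO sample 1 (right); dashed lines mark the share of all genes tested. Bars of the cholesterol list point left (7 of 25, then 22 of 25) and those of the lipid-associated macrophage list point right (8 of 16, then 13 of 16).

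Single transcripts gave fewer calls than genes. Of 48474 transcripts tested, 164 rose and 33 fell, or 0.338% and 0.0681%, 0.406% in all. Without DMSO sample 1 the counts were 1018 and 572, or 2.1% and 1.18%, 3.28% in all. Of the 197 called, 166 belonged to genes that passed the gene test, 10 to genes that did not, and 21 had no match in GENCODE 29. No gene had 1 transcript called higher and another called lower with 6 samples, and 11 genes did without DMSO sample 1. For NEK6, a mitotic kinase, the longer NEK6-205 (ENST00000394199) had 9.99, 7.56 and 7.32 TPM with DMSO and 2.92, 3.83 and 3.97 TPM with A9, and NEK6-207 (ENST00000423785) had 1.33, 3.04 and 2.65 TPM and 5.66, 6.68 and 5.61 TPM. Without DMSO sample 1 these differed by -0.89 (limma adjusted p 0.0356) and 0.86 (limma adjusted p 0.0285), and with it neither passed.

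The share of a gene's TPM held by each transcript gave no call. limma called 0 of 19015 transcripts of 6532 genes, or 0.0%, with a lowest adjusted p of 0.550, and 1571 had an unadjusted p under 0.05, or 8.26%. The transcripts below were chosen after their values were seen. The protein-coding CYP1B1-205 (ENST00000610745, chromosome 2, 38067507 to 38076181, 3 exons) had 4.47, 5.25 and 2.68 TPM with DMSO and 35.1, 64.8 and 48.2 TPM with A9, a difference of 3.29 (limma adjusted p 0.0172). The shorter CYP1B1-201 (ENST00000490576) had 6.83, 3.48 and 3.26 TPM and 3.76, 4.62 and 5.78 TPM, so the groups overlapped and the rise of the gene lay in the former. SLC11A1-202, annotated for nonsense-mediated decay, held 9.11% of the gene's TPM with DMSO and 22.1% with A9, and SELENOP-214 held 77.3% and 45.7%. In HP, FADS2 and TREM2 the transcripts HP-202, FADS2-202 and TREM2-202 held most of the TPM in both groups and passed on their own, with differences of 4.44, -1.71 and 2.65.

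The effect of A9 in MONO-MAC-6 was compared with that in MOLM-13 as an interaction over 12 samples. The dose was 0.25 µM in one line and 0.125 µM in the other, so an effect of the line cannot be told apart from one of the dose. Of 13417 genes, 401 passed, or 2.99%, with a higher effect in MONO-MAC-6 for 1.92% and a lower one for 1.07%. Of the 30 named genes, 28 passed, but the 30 were chosen for their effect in MONO-MAC-6, which favours a difference. Of the 30, 8 (6 raised and 2 lowered in MONO-MAC-6) were under 1 TPM in both MOLM-13 groups. For such genes the term mostly repeats the MONO-MAC-6 effect, as for CXCL1, at 0 TPM in MOLM-13 and 2.99 for both. HP and CLU were also low in MOLM-13, with means of 0.715 and 0.11 TPM with DMSO and 2.91 and 1.04 TPM with A9. Their differences there were 1.20 and 0.87, short of the threshold (limma adjusted p 0.0739 and 0.134). The 1 added to TPM shrinks differences at such levels, so the term depends partly on the level in MOLM-13. TREM2 and MS4A6A rose in both lines, and HSH2D fell in both. In MOLM-13 the difference was 0.87 for MS4A6A (limma adjusted p 0.026) and -1.08 for HSH2D (limma adjusted p 0.0358). TREM2 went from 0.544 ± 0.043 to 2.96 ± 0.53 TPM there (SD, n = 3), by 1.35 with a limma adjusted p of 0.0358. On the log2(TPM + 1) scale its rise was larger in MONO-MAC-6 by 1.37 (limma adjusted p 0.00112), with the same limit from its low level in MOLM-13. SREBF1 had 95.3 and 84.8 TPM in MOLM-13 with DMSO and A9 and differed between the lines by -0.83 (limma adjusted p 0.0320), and INSIG1 had 50.9 and 55.8 TPM there and differed by -1.34 (limma adjusted p 0.00446). GAL and HSH2D were the named genes whose effect did not differ at the threshold, by -0.43 (limma adjusted p 0.235) and -0.22 (limma adjusted p 0.459).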

How the data were processed

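Per the labels' protocols, poly(A) RNA with a RIN of at least 8 was made into libraries with NEBNext kits and sequenced as paired ends. Kallisto and limma are named among the tools, and GRCh38 as the build, per the submitters' processing notes, which give no versions. The deposited tables hold TPM per Ensembl transcript. Of 207175 transcripts, 78.5% matched GENCODE 29, and their TPM were summed here to genes; transcripts without a match enter no gene, so genes with unmatched transcripts are understated. Genes with near-identical copies are less certain. Counts were not used here, so depth and counting error are unknown.

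Libraries sharing a first number were averaged. Genes averaging 1 TPM or more in either group were fitted as log2(TPM + 1) with limma 3.58.1 (R 4.3.3; eBayes, trend and robust). Tests were two-sided, with Benjamini-Hochberg adjustment across every feature tested. Each transcript's share of its gene's TPM was tested on the fraction scale, in protein-coding genes of at least 5 TPM and with the log2 odds as an alternative. An exact permutation of 3 against 3 samples cannot fall under 0.1, so no such test was used. On simulated data, limma recovered 81% of 200 genes changed by 1.5 and 20% changed by 0.75, with 6 and 0 calls among unchanged genes. Of 200 transcripts changed by 1.5, 33% were recovered, with 3 such calls, and for shares 29% changed by 20 percentage points and 0% changed by 10. The simulated noise was independent between genes and even over the samples. In the data DMSO sample 1 stood apart across many genes, so these rates need not hold for them.

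Members and lists were chosen with earlier results of these data known. Named genes were protein-coding, called with and without DMSO sample 1, at 5 TPM or more, with groups apart: the 15 highest and 15 lowest, and in each list up to 4 called and 2 uncalled members. Genes named outside this rule were chosen after their values were seen, among them FDPS, TM7SF2, HMGCS1, SCAP, SCD, ACSL1, PLIN2, APOE, LGALS3, GPNMB, GAA, SREBF2, BLVRB, FTL, PRDX1, PGD, TKT, PLAUR, CXCL3, CXCL10, IFI44L, IFITM3, ISG15, IFIT1, IFIT3, IFITM1 and the named single transcripts. CTSA, CTSH, CTSZ, GLA, MAN2B1, MCOLN1 and ATP6V0D1 were also named outside it, for holding or not holding a motif. Some tested members are counted in their lists and are not reported here singly. Promoters are RefSeq, GRCh38.p14, from 250 bases before to 50 after a start. Python 3.11.15 with pandas 2.3.3 made the tables, and matplotlib 3.10.9 the plots. The settings varied were the pseudocount (0.1), the filter (none, or 5 TPM), the biotypes tested, the threshold (0.01), median-ratio scaling, removal of each sample's length trend, averaging by second number, 18 libraries with a random block, the replicate block, and each sample in turn left out.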

Additional observations from a re-analysis of the deposited data

Results flagged for a closer look

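The effect of A9 differed between MONO-MAC-6 and MOLM-13 for 28 of the 30 named genes, by an interaction term in limma with an adjusted p under 0.05. The genes were chosen for their effect in MONO-MAC-6, and the dose differed between the lines, and an effect of the line cannot be told apart from one of the dose. For genes low in MOLM-13, such as HP, CLU and TREM2, the 1 added to TPM shrinks the MOLM-13 difference. The difference, MONO-MAC-6 minus MOLM-13 on the log2(TPM + 1) scale, was 3.20 for HP, 2.91 for CLU, 3.55 for IFI27 and 3.21 for SLC11A1. It was 2.99 for CXCL1, 2.99 for OLR1, 2.68 for CXCL8, 1.37 for TREM2 and 2.67 for C3. It was 2.01 for FGR, 2.76 for CYP1B1, 1.98 for IFI6, 2.45 for GPX3, 1.40 for MS4A6A and 1.75 for THEMIS2. Among lowered genes it was -2.00 for FADS2, -1.76 for TUBA1A, -0.948 for CTSG, -1.34 for INSIG1 and -1.04 for SPON2. It was -1.05 for SELENOP, -0.926 for KAZALD1, -1.06 for RAB33A, -0.963 for TMEM119 and -0.834 for SREBF1, and -1.14 for PRSS57, -0.789 for MT2A and -0.894 for NUDT7.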

How the results depend on the processing

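The count of 433 genes became 254 with no filter, 1176 with the length trend removed, 8705 with libraries averaged by second number, 1599 with 18 libraries and a random block, and 109 at a threshold of 0.01. Leaving out 1 sample gave 59 to 3205 genes, with 3205 without DMSO sample 1, 119 and 210 without DMSO samples 2 and 3, and 120, 59 and 60 without A9 samples 1, 2 and 3. Transcripts went from 197 to 114 after scaling, and to 0 to 1590 with 1 sample left out. The line difference went from 401 genes to 202 without A9 sample 2 and 220 without A9 sample 3, within a range of 202 to 549. Deviations of same-numbered samples had correlations of -0.027, 0.088 and -0.091. With 3 samples a group these cannot decide whether the numbers pair the samples, and the labels do not say. With the replicate block 94 genes, 0 transcripts and 0 shares were called, and 207 genes for the line difference. The block left 15 of the 15 raised named genes, 5 of the 15 lowered ones and 0 cholesterol genes past the threshold. Shares gave 0 calls in limma under each alternative run, with a lowest adjusted p of 0.0558. Of 82 named genes that passed, 0 changed direction. For the 15 raised and 15 lowered genes, chosen with groups apart, leaving out 1 sample could not change it. Of the 82, 72 passed after scaling, 63 with no filter, 40 with the replicate block and 28 without A9 sample 3. The cause of these changes was not tested. Depth is unknown, so its limit on low genes cannot be given.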

Other observations

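Matrix genes, tryptases, IGF-binding proteins and amino-acid enzymes also moved with A9 in MONO-MAC-6; these families were chosen after their values were seen, so their counts are descriptions. COL6A1, a chain of collagen VI, had 14.5 to 19.9 TPM with DMSO and 67.8 to 73.5 TPM with A9, a rise of 1.98 (limma adjusted p 0.00171), and COL6A2 rose by 1.39. MMP2, a gelatinase, had 8.78, 14.8 and 16.6 TPM with DMSO and 42.6, 48.1 and 51.9 TPM with A9 and rose by 1.79. PCOLCE2, an enhancer of procollagen processing, went from 20.3 to 27.3 TPM to 77.3 to 87.2 TPM, a rise of 1.70 (limma adjusted p 0.00280). The mast cell tryptases TPSAB1, TPSB2 and TPSD1 rose by 1.36, 1.35 and 1.52; they are near-identical copies, so the split between them is uncertain.

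Of 5 tested IGF-binding proteins 4 fell, with and without DMSO sample 1, against 0.854% and, without that sample, 10.3% of all genes lower. IGFBP2 had 422, 296 and 289 TPM with DMSO and 184, 160 and 170 TPM with A9 (limma adjusted p 0.0326, and 0.0706 after scaling). Of 10 enzymes of serine synthesis and the amino-acid response, 5 fell, against 0.854% of all genes. Without DMSO sample 1, 9 fell, against 10.3%. PHGDH, the first enzyme of serine synthesis, had 145, 147 and 157 TPM with DMSO and 83.2, 80.6 and 84.3 TPM with A9 and fell by 0.85 (limma adjusted p 0.00321). Of 6 tested metallothioneins, MT2A and MT1X fell, against 0.854% of all genes, and 4 fell without DMSO sample 1, against 10.3%. MT1X missed the threshold after scaling (limma adjusted p 0.0619).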
